A study of Mus musculus with 15 samples.

Results

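The transcripts of 5 potassium channel subunit genes, Abcc9, Kcnj8, Kcne3, Kcnj2 and Kcng2, were followed in cultured mouse lymph node lymphatic endothelial cells (LECs) given increasing doses of VEGF-C. The genes were taken by symbol from a table of 45706 genes, and all 5 passed the filter on low counts that left 17650 genes for testing. They were chosen from their measured abundances in these same libraries, and which dose contrast picked each gene is not recorded. Their levels at 100 ng/mL against the lower doses are therefore given as a description with no test. Abcc9, Kcnj8 and Kcne3 were near the limit of detection without VEGF-C and were 159-, 112- and 118-fold higher at 100 ng/mL. Kcnj2 was 6.71-fold higher at 100 ng/mL, and Kcng2 stayed low at every dose.

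The cells came from lymph nodes of 5 sites of female C57Bl/6 mice, pooled, and carried Pdpn and CD31 but not CD45. All were kept in the same serum-supplemented medium for 72 h with 0 (unstimulated), 10 or 100 ng/mL of purified recombinant murine VEGF-C, with 5 libraries per dose, lettered A to E. Whether the 5 libraries of a dose were separate cultures is not stated in the labels, and p-values therefore rest on the spread among these 15 libraries, which may be technical. Abundances below are CPM, estimated counts relative to the scaled size of their library, unless RPKM, which also divides by gene length, is named.

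Potassium channels let potassium leave the cell and so set its membrane potential, which in endothelial cells bears on the driving force for calcium entry. The ATP-sensitive (KATP) channel joins pore subunits of the Kir6 family with sulfonylurea receptors. Kcnj8 encodes the pore subunit Kir6.1 and Abcc9 the receptor SUR2, the pairing best known from pericytes and vascular smooth muscle, and gain-of-function mutations of either gene cause Cantú syndrome in humans, in which lymphoedema occurs. Kcnj2 encodes the strong inward rectifier Kir2.1, which holds the resting potential of many endothelial cells. Kcne3 encodes a single-span accessory subunit that keeps the Kcnq1 channel open, and has been listed among transcripts of endothelial tip cells in the mouse retina. Kcng2 encodes an electrically silent voltage-gated subunit that forms channels only together with other voltage-gated subunits.

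Total estimated counts ranged from 27784906 to 38590841 per library. The first principal component of log2 CPM held 64.8% of the variance and parted the 100 ng/mL libraries from the rest. Library E of the unstimulated cells, D of the 10 ng/mL cells and B of the 100 ng/mL cells stood apart on the second component (12.6% of the variance), at -41.1, -28.2 and -45.1. Library C of the 100 ng/mL cells lay at 30.8 on this component, on the other side, and was not set apart with them. Log2 fold changes without libraries E, D and B named above are given for Abcc9 and Kcnj8. Counts of calls without them are given at the end. Of the LEC markers Flt4, the VEGF-C receptor, averaged 1576 CPM at 100 ng/mL and 614.9 CPM without VEGF-C (adjusted p 5.29e-07, edgeR's quasi-likelihood test). Prox1, the lymphatic identity factor, averaged 477.7 CPM at 100 ng/mL and 242.5 CPM without VEGF-C. Its libraries overlapped and it did not pass the same test (adjusted p 0.0589, edgeR). Ccl21a did not exceed 0.131 CPM in any library.

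Kcnj8 (ENSMUSG00000030247) and Abcc9 (ENSMUSG00000030249) lie side by side on the minus strand of mouse chromosome 6, with Kcnj8 at chr6:142564837-142571614 and Abcc9 at chr6:142587862-142702315 (GENCODE M21 on GRCm38). The 16.2 kb between them hold 0 other genes. The 250 bases before the RefSeq start of each gene, and before both RefSeq starts of Kcne3, are printed. These 3 differed most between doses among the chosen subunits, which were picked with such values known. Sequences and positions are those of RefSeq for GRCm38.p6, on the strand of the gene, at chr6:142571615-142571864 for Kcnj8, chr6:142702275-142702524 for Abcc9, and chr7:100176420-100176669 and chr7:100178433-100178682 for Kcne3. Capitals mark matches to GGAAA (the NFAT core, TTTCC on the opposite strand) or TGGGAA (the RBPJ site, TTCCCA on the opposite strand). Both belong to 4 motifs searched on both strands and share the letters GGAA, the shorter core of ETS sites. GGAA outside these motifs was not searched or marked, so the marks do not show where ETS cores are present or absent.
Kcnj8: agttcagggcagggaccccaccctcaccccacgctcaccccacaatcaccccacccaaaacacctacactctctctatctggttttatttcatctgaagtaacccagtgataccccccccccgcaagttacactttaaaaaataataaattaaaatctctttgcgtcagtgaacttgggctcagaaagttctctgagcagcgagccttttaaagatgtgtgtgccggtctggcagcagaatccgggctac
Abcc9: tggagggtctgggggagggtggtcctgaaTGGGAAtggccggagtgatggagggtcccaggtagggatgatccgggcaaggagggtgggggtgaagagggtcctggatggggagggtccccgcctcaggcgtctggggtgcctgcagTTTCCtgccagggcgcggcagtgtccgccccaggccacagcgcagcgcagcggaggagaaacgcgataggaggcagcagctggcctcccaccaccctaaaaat
Kcne3, upstream start: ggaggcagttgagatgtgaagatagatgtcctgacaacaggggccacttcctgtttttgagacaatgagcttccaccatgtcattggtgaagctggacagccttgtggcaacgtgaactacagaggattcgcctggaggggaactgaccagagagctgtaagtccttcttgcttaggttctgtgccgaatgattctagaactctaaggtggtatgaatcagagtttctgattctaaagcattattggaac
Kcne3, downstream start: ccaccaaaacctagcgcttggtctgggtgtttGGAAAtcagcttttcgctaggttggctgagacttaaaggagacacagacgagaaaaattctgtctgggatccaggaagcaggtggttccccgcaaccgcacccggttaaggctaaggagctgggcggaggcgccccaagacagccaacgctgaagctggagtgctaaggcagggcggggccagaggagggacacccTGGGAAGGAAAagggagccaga

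The Kcnj8 window and the upstream Kcne3 window held none of the 4 motifs. In the Abcc9 window TGGGAA began 221 bases before the start and TTTCC 103 bases before it. In the downstream Kcne3 window GGAAA began 218 and 16 bases before the start and TGGGAA 22 bases before it. The other motifs searched, TGACTCA (the AP-1 site) and AACAAT (a SOX core), were found in none of these windows, nor was any of the 4 in the window of Kcnj2. Among 32851 RefSeq promoter windows of the same length, 55.6% held GGAAA, 21.6% TGGGAA, 9.4% AACAAT and 4.5% TGACTCA on either strand. A match in such a window is a description of its letters and not a binding site.

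The receptor subunit of the KATP channel was almost undetected without VEGF-C. Abcc9 had 0.159, 0.239, 0.093, 0.278 and 0.379 CPM in unstimulated libraries A to E, which rested on estimated counts of 3.03 to 14.04 per library. It had 0.251, 0.304, 0.875, 1.09 and 0.230 CPM in the 10 ng/mL libraries and 67.6, 27.5, 24.2, 27.5 and 39.7 CPM in the 100 ng/mL libraries. The 5 libraries at 100 ng/mL all lay far above the other 10, while those at 10 ng/mL and without VEGF-C overlapped. The means were 37.3 ± 18.0 CPM at 100 ng/mL and 0.230 ± 0.110 CPM in unstimulated cells (SD, n = 5 each), a log2 fold change of 7.31 (SE 0.48), which stood at rank 2 of 17650 genes from the top. Without the 3 libraries that stand apart it was 7.67.

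The pore subunit followed the same course. Kcnj8 had 0.185, 0.149, 0.310, 0.124 and 0.434 CPM in unstimulated libraries A to E and 0.334, 0.548, 0.371, 1.09 and 0.201 CPM in the 10 ng/mL libraries. The 100 ng/mL libraries had 43.3, 17.3, 19.5, 25.9 and 31.9 CPM. Again the 100 ng/mL libraries did not overlap with any other, and library A was the highest of them, as for Abcc9. Kcnj8 averaged 27.6 ± 10.47 CPM at 100 ng/mL and 0.240 ± 0.130 CPM in unstimulated cells (SD, n = 5 each), with a log2 fold change of 6.81 (SE 0.42; rank 4 of 17650) and of 7.27 without the 3 libraries that stand apart.

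**Figure D1:**
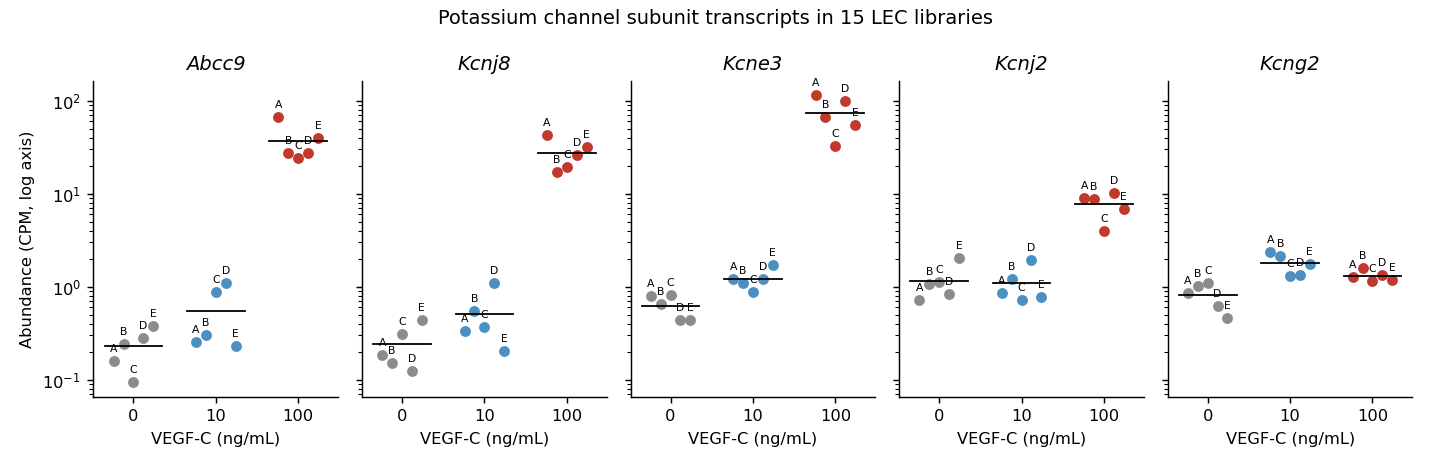
Abundance of 5 potassium channel subunit transcripts (CPM, log axis) against VEGF-C dose (ng/mL), with 1 lettered point per library and a line at the mean of the 5 libraries of a dose. The 100 ng/mL libraries of Abcc9 (24.2 to 67.6 CPM), Kcnj8 (17.3 to 43.3 CPM) and Kcne3 (32.3 to 115 CPM) lie far above the other 10, Kcnj2 differs less, and Kcng2 stays between 0.461 and 2.37 CPM throughout.

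The RPKM ratio of the pore to the receptor subunit was steadiest where both were abundant. Per length, Kcnj8 exceeded Abcc9 in each of the 15 libraries. The ratio was 4.42 ± 3.93 in unstimulated cells (range 1.43 to 11.2), 3.63 ± 1.68 at 10 ng/mL and 2.59 ± 0.44 at 100 ng/mL (SD, n = 5 each), with a range of 2.13 to 3.19 at the highest dose. The pair rested on 1335 to 3562 estimated counts per library at 100 ng/mL, against 12.4 to 29.6 in unstimulated cells, so the wider spread at 0 ng/mL comes with far lower counts. The other KATP subunits did not pass the filter. Kcnj11, the Kir6.2 pore subunit, reached at most 0.0623 CPM in a library, and Abcc8, the SUR1 receptor, at most 0.134 CPM.

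**Figure D2:**
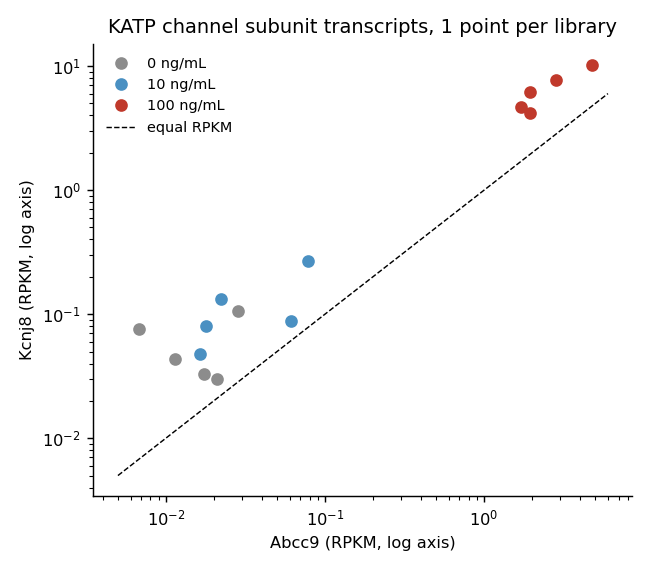
Kcnj8 against Abcc9 abundance per library (RPKM, both axes logarithmic), with 1 point per library coloured by VEGF-C dose and a dashed line where both are equal. All 15 points lie above the line, and the 100 ng/mL libraries (Kcnj8 4.15 to 10.29 RPKM, Abcc9 1.70 to 4.75 RPKM) form a separate group with ratios of 2.13 to 3.19.

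Kcne3 (ENSMUSG00000035165, chr7:100176502-100184869 on the plus strand) reached the highest level of the 5. It had 0.793, 0.657, 0.806, 0.433 and 0.434 CPM in unstimulated libraries A to E and 1.20, 1.10, 0.875, 1.20 and 1.70 CPM in the 10 ng/mL libraries. With 100 ng/mL it reached 114.6, 67.8, 32.3, 100.06 and 55.6 CPM. The doses did not overlap with each other at any step, although the difference between 10 and 0 ng/mL was small beside that at 100 ng/mL. The means were 74.1 ± 33.3 CPM at 100 ng/mL and 0.625 ± 0.184 CPM in unstimulated cells (SD, n = 5 each), with a log2 fold change of 6.88 (SE 0.37; rank 3 of 17650). Per length Kcne3 averaged 22.5 RPKM at 100 ng/mL, a level above that of 91.3% of tested genes, against 68.6% for Kcnj8 and 47.4% for Abcc9.

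Kcnj2 (ENSMUSG00000041695, chr11:111066164-111076821 on the plus strand), the inward rectifier, had 0.714, 1.07, 1.12, 0.835 and 2.03 CPM in unstimulated libraries A to E and 0.864, 1.22, 0.716, 1.93 and 0.777 CPM in the 10 ng/mL libraries. With 100 ng/mL it had 9.03, 8.85, 3.997, 10.25 and 6.86 CPM. The 100 ng/mL libraries lay above all others, and the 2 lower doses overlapped throughout. Kcnj2 averaged 7.80 ± 2.45 CPM at 100 ng/mL and 1.15 ± 0.52 CPM in unstimulated cells (SD, n = 5 each), a log2 fold change of 2.75 (SE 0.33; rank 118 of 17650). The related gene Kcnj12, which encodes Kir2.2, did not exceed 0.084 CPM in any library.

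Kcng2 (ENSMUSG00000059852), the silent voltage-gated subunit, had another course. It had 0.846, 1.01, 1.09, 0.618 and 0.461 CPM in unstimulated libraries A to E and 2.37, 2.13, 1.30, 1.34 and 1.75 CPM in the 10 ng/mL libraries. At 100 ng/mL it had 1.28, 1.60, 1.15, 1.35 and 1.17 CPM. Every library with VEGF-C lay above every library without it, and the levels at 10 and 100 ng/mL overlapped. The log2 fold change was 1.14 (SE 0.23) at 10 ng/mL and 0.70 (SE 0.23) at 100 ng/mL, each over unstimulated cells, and -0.44 (SE 0.22) for 100 over 10 ng/mL. The counts behind these values were low, 17.0 to 84.8 per library.

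For all 5 subunits each library at 100 ng/mL lay above each unstimulated library, a pattern that 13.5% of the 17650 tested genes showed in the same direction. By edgeR's quasi-likelihood test 21.4% of tested genes were called higher at 100 ng/mL than without VEGF-C and 21.5% lower, at an adjusted p under 0.05. The subunits were chosen with their values in this contrast known, so nothing is read from their own count. For 100 over 10 ng/mL the log2 fold changes were 6.06 (SE 0.43) for Abcc9, 5.75 (SE 0.38) for Kcnj8, 5.93 (SE 0.34) for Kcne3 and 2.82 (SE 0.33) for Kcnj2, with no overlap between the libraries of either dose, a pattern of 12.7% of tested genes. The 3 comparisons share libraries pair by pair.

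Between 10 and 0 ng/mL 0 of the 5 subunits passed edgeR's quasi-likelihood test, as did 0% of all tested genes, so nothing particular to the subunits is read from that count. The log2 fold changes of 10 over 0 ng/mL were 1.25 (SE 0.61) for Abcc9, 1.06 (SE 0.53) for Kcnj8, 0.95 (SE 0.41) for Kcne3 and -0.07 (SE 0.35) for Kcnj2. These 4 values are given as a description, because the same unstimulated libraries were in view when the genes were picked. Abcc9 reached the cutoff of the count filter in 4 of the 10 libraries at 0 and 10 ng/mL and passed the filter through the 100 ng/mL libraries, whereas the other 4 subunits also pass on the lower doses alone. Their 95% confidence intervals reached 2.55 for Abcc9, 2.19 for Kcnj8, 1.83 for Kcne3 and 0.68 for Kcnj2, so differences of that size were within the error. Over all genes 844 (4.78%) had an unadjusted p under 0.05 in this comparison, the DESeq2 Wald test called 10 genes and limma-voom 0. The 10 ng/mL libraries of Kcne3 and Kcng2 did not overlap with the unstimulated ones, which 0.878% of tested genes showed in the same direction. Kcng2 had the smallest p of all genes in this comparison, so it may have been picked for it, and its difference is likewise a description.

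Library D of the 10 ng/mL group and library E of the unstimulated group, both among the 3 that stand apart, carried the highest Abcc9, Kcnj8 and Kcnj2 of their groups. Without 10 ng/mL library D the log2 fold change of 10 over 0 ng/mL was 0.86 for Abcc9 and 0.57 for Kcnj8. Without unstimulated library E it was 1.52 for Abcc9 and 1.39 for Kcnj8. Kcnj2 turned from -0.07 to 0.24 without unstimulated library E, and to between 0.0016 and 0.05 without 10 ng/mL library A, C or E. Among the 100 ng/mL libraries, A was the highest for Abcc9, Kcnj8 and Kcne3, and C was the lowest for Abcc9, Kcne3, Kcnj2 and Kcng2.

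The order of the 5 levels per length changed with the dose. In unstimulated cells the means were 0.194 RPKM for Kcne3, 0.159 for Kcng2, 0.115 for Kcnj2, 0.0577 for Kcnj8 and 0.0169 for Abcc9. Neighbours in that order overlapped over the libraries, except that the highest Abcc9 value (0.0283 RPKM) lay just under the lowest Kcnj8 value (0.0299 RPKM). At 10 ng/mL the order was Kcne3 (0.370 RPKM), Kcng2 (0.344), Kcnj8 (0.123), Kcnj2 (0.108) and Abcc9 (0.0392), and each neighbour in that order overlapped with the next. The order at 100 ng/mL was Kcne3 (22.5 RPKM), Kcnj8 (6.61), Abcc9 (2.64), Kcnj2 (0.752) and Kcng2 (0.253). There Kcne3 overlapped with Kcnj8 and Kcnj8 with Abcc9, while Abcc9, Kcnj2 and Kcng2 were apart from one another.

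Kcnq1 (ENSMUSG00000009545, chr7:143106362-143427042), the pore subunit that Kcne3 is known to modulate, rose too. It had 0.397, 0.418, 0.434, 0.742 and 0.542 CPM in unstimulated libraries A to E, 0.557, 0.609, 0.769, 0.924 and 0.489 CPM at 10 ng/mL, and 20.7, 6.41, 11.6, 15.9 and 14.97 CPM at 100 ng/mL. The highest dose did not overlap with the others, and the lower doses overlapped. Kcnq1 averaged 13.9 ± 5.3 CPM at 100 ng/mL and 0.507 ± 0.143 CPM in unstimulated cells (SD, n = 5 each), with a log2 fold change of 4.78 (SE 0.31) and an adjusted p of 3.54e-08 by edgeR's quasi-likelihood test. Per length it averaged 1.83 RPKM at 100 ng/mL, against 22.5 RPKM for Kcne3. Exons of Kcnq1 overlap Kcnq1ot1 on the opposite strand, and no source used here states whether counting used strand, so reads of this pair cannot be told apart with certainty. Kcnq1ot1 itself averaged 2.12 CPM at 100 ng/mL and 2.08 CPM without VEGF-C and did not pass the test (adjusted p 0.905, edgeR). The other KCNE genes did not pass the filter, and Kcne4, the most abundant of Kcne1, Kcne2 and Kcne4, averaged 0.204 CPM at 100 ng/mL and 0.192 CPM in unstimulated cells.

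The other genes of the Kcng2 family, Kcng1, Kcng3 and Kcng4, did not pass the filter. The silent subunits Kcnf1 and Kcns1 both fell at 100 ng/mL against unstimulated cells. Kcnf1 averaged 2.28 ± 0.37 CPM at 100 ng/mL and 6.53 ± 1.19 CPM in unstimulated cells (SD, n = 5 each), or -1.52 on the log2 scale (SE 0.20, edgeR adjusted p 2.9e-05), and the log2 difference of Kcns1 was -2.87 (SE 0.64, edgeR adjusted p 0.00222).

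Most other potassium channel genes were scarce. Of 90 other listed potassium channel genes 34 could be tested. At 100 ng/mL against unstimulated cells 7 rose and 12 fell (edgeR, adjusted p under 0.05), or 20.6% and 35.3% of those tested, beside 21.4% and 21.5% of all genes. Their median log2 fold change was -0.49, against 0.008 over all tested genes. Against 10 ng/mL, 8 rose and 12 fell at 100 ng/mL, beside 19.9% and 20.6% of all genes. Some of these calls were marginal. Among those that fell, Kcnj1 no longer passed in 13 and Kcnq5 in 12 of 25 alternative analyses, and Kcnab2 in 9 of 26. Among those that rose, Kcnip3 no longer passed in 8 and Kcnn3 in 2 of 25. Between 10 and 0 ng/mL 0 of 34 passed.

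The channel genes that rose at 100 ng/mL over unstimulated cells were Kcnq1, Kcnh1, Kcnd3, Kcnj15, Kcnn3, Kcnk5 and Kcnc2. Kcnh1, a voltage-gated subunit of the ether-a-go-go family, averaged 6.58 ± 2.44 CPM at 100 ng/mL and 1.18 ± 0.50 CPM without VEGF-C (log2 fold change 2.48, SE 0.38, adjusted p 9.72e-05, edgeR). Kcnj15, the inward rectifier Kir4.2, averaged 21.05 ± 3.53 CPM at 100 ng/mL and 8.31 ± 2.54 CPM without VEGF-C (1.34, SE 0.22, adjusted p 0.000165, edgeR), and at 0 and 10 ng/mL its mean levels per length, 0.669 and 0.722 RPKM, were above those of the 5 chosen subunits. Kcnc2, a fast voltage-gated subunit, differed less but with little spread, at 8.29 ± 0.85 CPM at 100 ng/mL and 4.79 ± 0.29 CPM without VEGF-C (0.79, SE 0.09, adjusted p 8.97e-06, edgeR). Kcnd3 (a fast-inactivating voltage-gated subunit), Kcnn3 (a small-conductance calcium-activated channel) and Kcnk5 (a pore subunit of potassium leak channels) rose with log2 fold changes of 1.44, 1.28 and 1.19.

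The 12 genes that fell were Kcnmb1, Kcns1, Kcnt1, Kcnab1, Kcnk7, Kcnt2, Kcnq5, Kcnj10, Kcnf1, Kcnn4, Kcnab3 and Kcnab2. Kcnmb1, the beta subunit of the large-conductance calcium-activated channel known from smooth muscle, averaged 0.208 ± 0.141 CPM at 100 ng/mL and 1.68 ± 0.92 CPM without VEGF-C (SD, n = 5 each), or -2.97 on the log2 scale (SE 0.54, edgeR adjusted p 0.000424). The sodium-activated channels Kcnt1 and Kcnt2 had log2 fold changes of -2.75 and -1.71. Kcnab1, Kcnab3 and Kcnab2, the cytoplasmic beta subunits of voltage-gated channels, fell with -2.13, -1.04 and -0.57. Kcnk7, Kcnj10 (the inward rectifier Kir4.1), Kcnq5 and Kcnn4 fell with -1.79, -1.55, -1.56 and -1.06, of which Kcnq5 no longer passed in 7 and Kcnn4 in 3 of 25 alternative analyses. Kcnj15, Kcnd3, Kcnab1, Kcnab3, Kcnt2 and Kcnq5 have exons that overlap a gene on the opposite strand, so their values are uncertain to that extent.

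**Figure D3:**
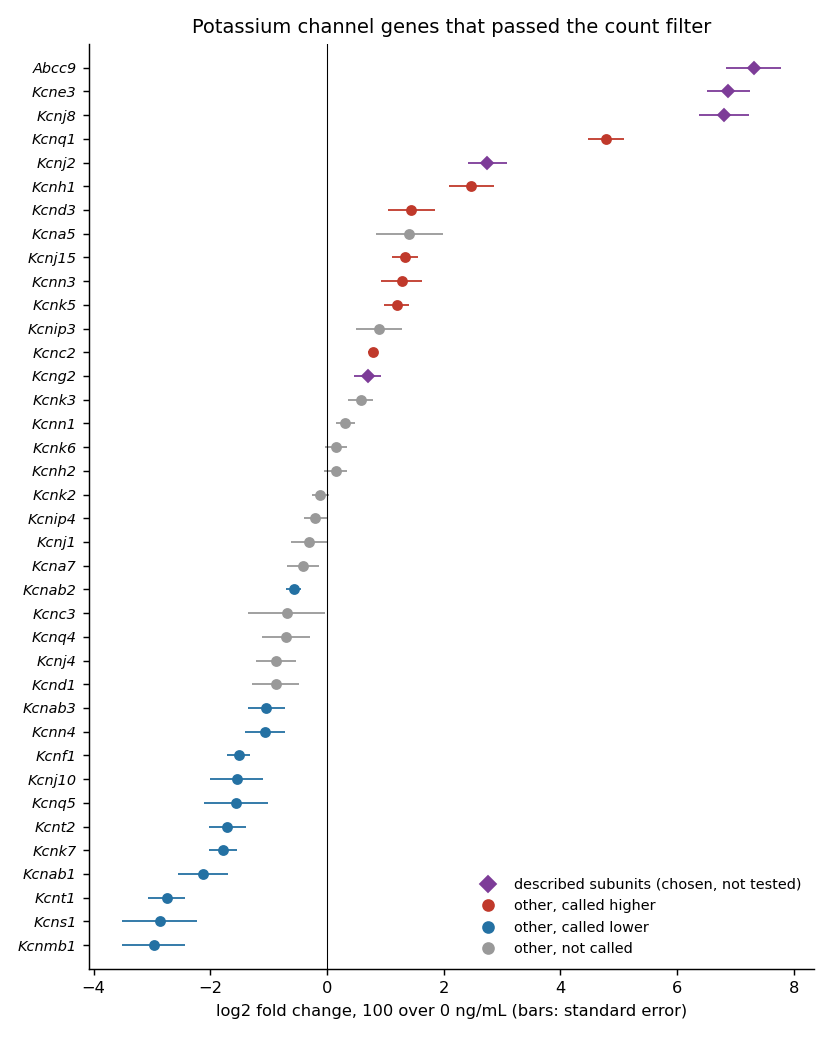
Log2 fold change at 100 over 0 ng/mL (horizontal axis, bars are standard errors) of potassium channel genes that passed the count filter. Purple diamonds are the 5 chosen subunits with no test, and circles are the other genes, red where called higher (7), blue where called lower (12) and grey where not called. Abcc9, Kcne3 and Kcnj8 stand at 6.81 to 7.31, ahead of Kcnq1 at 4.78.

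Abcc9 also belongs to the ABCC family of membrane transporters, most of which pump substrates out of the cell. Of 8 other ABCC genes 5 could be tested, and at 100 ng/mL against unstimulated cells 1 rose and 2 fell, or 20% and 40%, beside 21.4% and 21.5% of all genes. Abcc4 rose (log2 fold change 0.33, SE 0.08, adjusted p 0.00253, edgeR), and Abcc5 and Abcc10 fell (-0.72 and -0.42, adjusted p 0.000405 and 0.00361). Abcc1 and Abcc3, both multidrug-resistance proteins, had 0.07 and -0.36 and did not pass.

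Around the Kcnj8 and Abcc9 pair, 19 other genes lie within 500 kb and 11 of them could be tested. At 100 ng/mL against unstimulated cells 4 rose and 1 fell, or 36.4% and 9.1%, beside 21.4% and 21.5% of all genes, and the median log2 fold change was 0.13. Spx (listed as B230216G23Rik), which encodes the peptide hormone spexin, had 8.47, 3.11, 38.6, 17.4 and 24.3 CPM in 100 ng/mL libraries A to E and 0.269 to 0.555 CPM in unstimulated libraries, or 5.58 on the log2 scale (SE 0.59, edgeR adjusted p 3.18e-06). St8sia1, the ganglioside GD3 synthase, averaged 26.6 ± 7.3 CPM at 100 ng/mL and 2.69 ± 0.61 CPM without VEGF-C (3.31, SE 0.33, adjusted p 1.65e-06, edgeR). Cmas, which activates sialic acid, rose by 0.34 on the log2 scale (adjusted p 1.38e-05), and Golt1b rose by 0.27 (adjusted p 0.0443) but did not pass in 18 of 26 alternative analyses. Pyroxd1, whose exons overlap Recql on the opposite strand, fell by 0.25 (adjusted p 0.00555). The closest tested genes on either side, Ldhb and Cmas, had -0.65 (SE 0.29, edgeR adjusted p 0.0859) and 0.34. The size of the difference thus did not fall off evenly with distance from the pair. Without the 3 libraries that stand apart, Ldhb and Recql also passed.

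**Figure D4:**
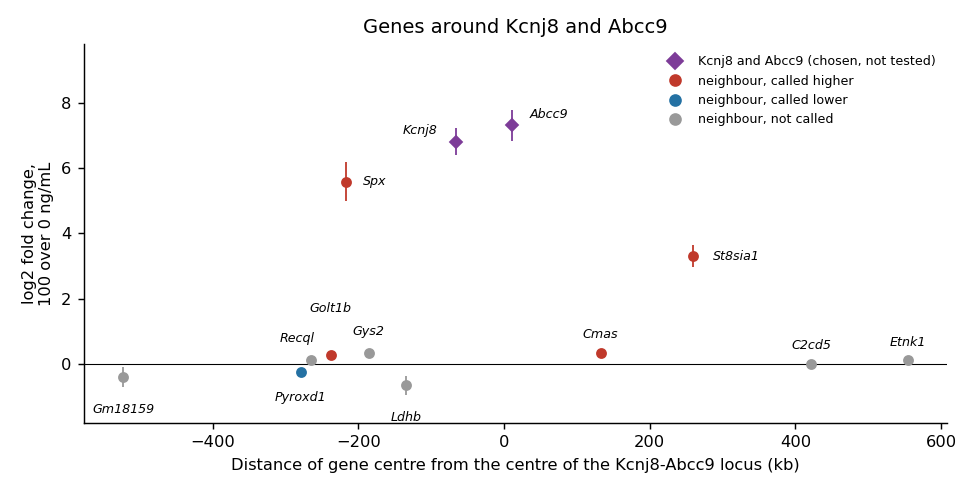
Log2 fold change at 100 over 0 ng/mL (vertical axis, bars are standard errors) of tested genes around Kcnj8 and Abcc9, against the distance of the gene centre from the centre of the pair in kb. Purple diamonds are Kcnj8 (6.81) and Abcc9 (7.31), red circles are the 4 neighbours called higher, blue the 1 called lower and grey those not called, with Spx (5.58) and St8sia1 (3.31) apart from the other neighbours.

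Kcnj8 and Abcc9 are also known markers of pericytes, so the levels of other cell types' markers are set beside them. In bulk samples, more cells of a type and more RNA per cell cannot be told apart. Of 16 mural cell markers 14 could be tested, and at 100 ng/mL against unstimulated cells 0 rose and 9 fell, beside 21.4% and 21.5% of all genes, among them Acta2 (18.7 CPM at 100 ng/mL and 299.9 CPM without VEGF-C) and Pdgfrb (17.9 CPM at 100 ng/mL and 62.9 CPM without VEGF-C). Their summed level was 849 to 1447 CPM in unstimulated libraries, 664 to 911 CPM at 10 ng/mL and 197 to 490 CPM at 100 ng/mL. A large part of the sum at 100 ng/mL was Mcam, which did not pass the test. It averaged 214.6 CPM there and 266.5 CPM without VEGF-C (adjusted p 0.414, edgeR). The pericyte markers Higd1b and Vtn did not exceed 0.183 CPM in any library, and Rgs5 averaged 2.14 CPM at 100 ng/mL and 1.41 CPM without VEGF-C (adjusted p 0.395, edgeR). Fibroblastic markers summed to 96.8 to 438 CPM at 100 ng/mL and 986 to 2864 CPM in unstimulated libraries, and 6 of 7 tested fell, beside 21.5% of all genes. Of the leukocyte markers 5 of 7 tested fell and of the muscle and neuronal markers 3 of 5, beside the same share of all genes, and 0 rose in these 3 lists. LEC markers summed to 6845 to 9571 CPM at 100 ng/mL and 4586 to 5299 CPM without VEGF-C. Of these 7 of 9 tested rose, beside 21.4% of all genes, while Prox1 and Pdpn did not pass. The list includes Pecam1, Cdh5 and Tek, which are not particular to LECs and were among those that rose. Cdh5 and Pecam1 alone averaged 2162 and 1587 CPM without VEGF-C, so the sum is largely theirs. The KATP pair was highest at the dose at which mural and fibroblastic markers were lowest, and the part of these cell types in the result was not tested.

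**Figure D5:**
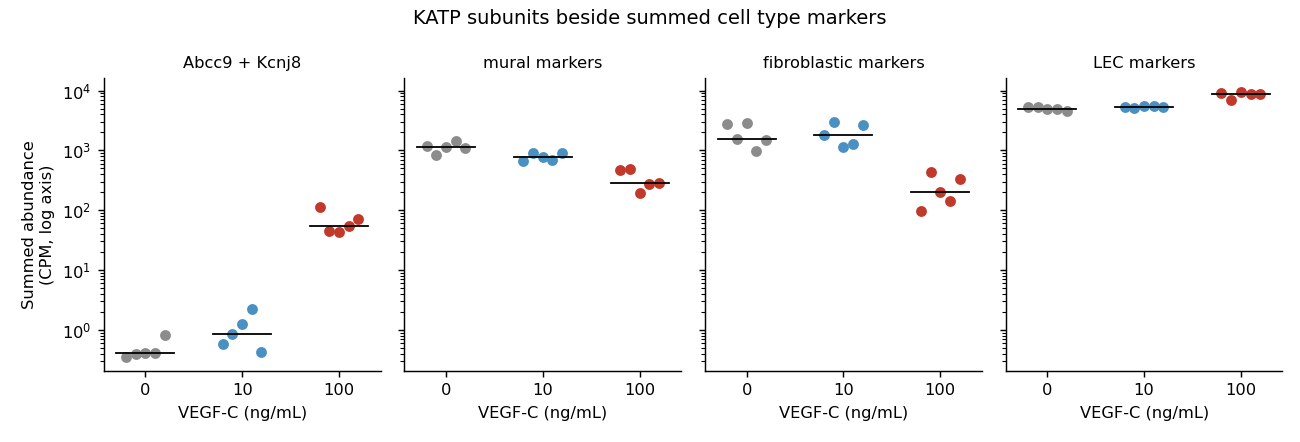
Summed abundance (CPM, log axis) of Abcc9 and Kcnj8 and of mural, fibroblastic and LEC marker lists against VEGF-C dose (ng/mL). Each library is 1 point, and a line stands at the median of the 5 libraries. The LEC list includes Pecam1, Cdh5 and Tek, which are not particular to LECs. At 100 ng/mL the KATP pair is far higher than at 0 ng/mL, while mural markers (197 to 490 CPM at 100 ng/mL, 849 to 1447 CPM at 0 ng/mL) and fibroblastic markers (96.8 to 438 CPM at 100 ng/mL, 986 to 2864 CPM at 0 ng/mL) are lower.

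The genes whose course over the 15 libraries was most like that of each subunit were ranked by the mean absolute difference of centred log2 CPM. This is a description over libraries that share their doses. Genes with predicted or clone names (Gm with digits, or ending in Rik) were left out of the ranking but not of the medians. For Abcc9 the nearest gene was Kcnj8 (0.47), followed by Ednrb, the endothelin receptor B (0.61), and the membrane metalloproteinase Mmp15 (0.63), where the median over all genes was 2.90. For Kcnj8 they were Kbtbd11 (0.37), Abcc9 (0.47) and Mmp15 (0.50). For Kcne3 they were the chemokine receptor Cxcr4 (0.54), Kcnj8 (0.57) and Kbtbd11 (0.58). Kcnj2 lay close to the protease gene Adamts4 (0.17), the Cdc42 effector Cdc42ep2 (0.23) and Plet1os (0.28), with a median over all genes of 1.24. For Kcng2 they were the mitochondrial transcript mt-Nd4l (0.29), Tmem79 (0.30) and the mitochondrial transcript mt-Co1 (0.31), with a median over all genes of 0.47. Among the 5 subunits, Abcc9, Kcnj8 and Kcne3 lay within 0.77 of one another, and Kcng2 lay 2.65 or more from each of these.

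Opposite-strand genes overlap exons of 3 of the 5 subunits. The Abcc9 partner 5330439B14Rik averaged at most 0.012 CPM at any dose. The Kcng2 partner D330025C20Rik averaged 0.058, 0.148 and 0.114 CPM at 0, 10 and 100 ng/mL. Kcng2 itself averaged 0.805, 1.78 and 1.31 CPM, with the doses in the same order. Whether counting used strand is not stated, so reads of this pair cannot be told apart with certainty. The Kcne3 partner, Gm34821, was not analysed here. Kcnj8 and Kcnj2 have no such overlap in the annotation.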

How the data were processed

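RNA of 15 LEC libraries (5 per dose) was sequenced after poly-A selection with a stranded kit, per the labels. For each library and each of 45706 genes the authors deposited an estimated count and an RPKM value (divided by gene length and library total), per the file headers. Among the deposited estimated counts 64.3% were not whole numbers. FastQC, Bowtie2, limma, GRCm38 and mm10 are named, without versions, per the submitters' processing notes, while no source used here states the read counter or its use of strand. A second deposited table of 6719 genes repeated these values for 6718 of them (within 0.001), held 0 of the 5 genes and was not used.

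Groups and letters came from the sample titles. The quasi-likelihood model of edgeR 4.0.16 (R 4.3.3) was fitted to rounded counts of the 17650 genes that filterByExpr kept, with TMM scaling, all 15 libraries and no term but dose, and p-values adjusted by Benjamini-Hochberg over the 17650 genes were called under 0.05. Standard errors were the log2 fold change over the square root of F. Replicates differed by more than counting noise (chi-square of 8.51 or more per degree of freedom). The model was also run on counts simulated with its own fitted spread, where only genes at 1 CPM or more without VEGF-C were changed. That run does not cover the unstimulated levels of Abcc9, Kcnj8, Kcne3 and Kcng2, nor those of Kcnq1 and other genes under 1 CPM. The 5 genes and all gene lists were chosen with earlier results of these data known. Genes are named where they belong to the 5, are channel genes called in a comparison, are tested partners or neighbours, or are the 3 nearest by course. Of these, 1 gene counts among those tested and is not reported here. Alternatives used DESeq2 1.42.0, limma 3.58.1, other scalings, filters and pseudocounts, a replicate block and leaving out each library. Leaving out 3 libraries together was added after seeing the data.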

Additional observations from a re-analysis of the deposited data

How the results depend on the processing

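Each result was recomputed under 26 alternatives, of which 15 left out 1 library each. With genes kept at 1 CPM or more in 5 libraries, 12 of 17 other potassium channel genes were called (6 higher, 6 lower) both for 100 against 0 and for 100 against 10 ng/mL, where 19 and 20 of 34 had been called, since fewer genes were tested. Leaving out 1 library gave 17 to 22 and 16 to 22 such calls. It gave 4 to 6 called neighbours of Kcnj8 and Abcc9, 3 called ABCC transporters and 0 called subunits between 10 and 0 ng/mL. Without the 3 libraries that stand apart, 22 and 23 other channel genes were called. In that setting 7 neighbours were called, among them Recql and Ldhb, where 5 had been called. The log2 fold change of Kcnj2 for 10 over 0 ng/mL ranged from -0.38 to 0.24 when 1 library was left out and changed sign without unstimulated library E (0.24) or 10 ng/mL library A (0.0016), C (0.05) or E (0.03). Letters did not pair the libraries, with same-letter correlations of -0.342 to 0.132, and the replicate block gave 18 channel calls in both comparisons and 4 neighbours and changed no other count. On the log2(RPKM + 1) scale the 100 over 0 ng/mL differences shrank to 1.78 for Abcc9, 2.79 for Kcnj8, 4.18 for Kcne3, 0.64 for Kcnj2 and 0.11 for Kcng2, because the pseudocount exceeds the unstimulated levels. Depth limits the unstimulated values most, where Abcc9 rested on as few as 3.03 counts.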
